A study of Mus musculus with 5 samples.

Results

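The genes described here are 10 genes of the response to low oxygen and of its branches into mitochondrial clearance and growth control: Hif1a, Epas1, Egln1, Egln3, Vegfa, Adm, Bnip3, Bnip3l, Ndrg1 and Ddit4. They were chosen by name, and all 10 were found among the 20583 gene symbols of the deposited table. Of several transcript rows of a gene, the row with the highest mean read count was used. The RNA came from mouse macrophages grown from bone marrow, where the growth factor M-CSF turns precursor cells into adherent phagocytes. The groups were NICcA (n = 2 libraries, numbered 2 and 3) and wild type (n = 3 libraries, numbered 1 to 3). In both groups the mice were 7 to 8 weeks old on a C57BL/6 background, and the marrow was cultured for 7 days with 25 ng/ml M-CSF. NICcA is not explained in the labels. Elsewhere it denotes a transgene that yields the intracellular, transcriptionally active part of a Notch receptor once Cre has acted. The labels name neither the receptor nor the promoter of a Cre. Nor is it stated that replicates are different mice, so the p-values measure only how far these samples spread, which may be technical.

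Cells sense oxygen mainly through the stability of a protein. In oxygen, prolyl hydroxylases of the Egln family mark the HIF alpha subunits (Hif1a and Epas1, also called HIF-2 alpha) for recognition by the Vhl ubiquitin ligase and for destruction. When oxygen is scarce, or when the subunits are made faster than they are destroyed, they pair with Arnt and switch on genes for glycolysis, blood vessel growth, removal of mitochondria and restraint of the growth kinase complex mTORC1. In macrophages Hif1a is also induced by inflammatory signals at normal oxygen. Since the control acts largely on protein, the messenger RNA of Hif1a or Epas1 does not report HIF activity.

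Ddit4, whose product REDD1 holds mTORC1 in check, differed most between the genotypes. It stood at 9.02 and 7.39 CPM (read counts scaled to a common library size, with TMM factors) in NICcA libraries 2 and 3, against 2.74, 2.18 and 0.895 CPM in wild type libraries 1, 2 and 3. Ndrg1 and the hydroxylase gene Egln3 also stood above every wild type library in both NICcA libraries, while Bnip3l and Epas1 were lower in both. Hif1a, Egln1, Vegfa and Bnip3 overlapped between the genotypes, and Adm was near the limit of detection. The test across all genes was edgeR's quasi-likelihood test with Benjamini-Hochberg adjustment. It called 0 of the 9 tested genes at an adjusted p below 0.05, where 0.03% of all 13341 genes tested were called. At an unadjusted p below 0.05 it held 4 of the 9 (Egln3, Ndrg1 and Ddit4 higher, Bnip3l lower), beside 14.5% of all genes (7.68% higher, 6.83% lower). DESeq2, another count test, called 3 of the 9 (Ddit4 and Ndrg1 higher, Bnip3l lower), beside 3.95% of all genes (2.05% higher, 1.9% lower). A further test fitted to the counts, limma-voom, called 0 of the 9 and 2 of all 13341 genes. The groups did not overlap for 5 of the 9 genes, 3 higher and 2 lower in NICcA, beside 36.8% of all genes tested (18.3% higher, 18.5% lower). Other edgeR fits that moved the number of calls over all genes also called 0 of these genes: 0.0571% of all genes were called without a filter on low counts, 0.318% without NICcA library 3, and 0.06% with legacy = FALSE, a setting added after seeing the data.

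**Figure D1:**
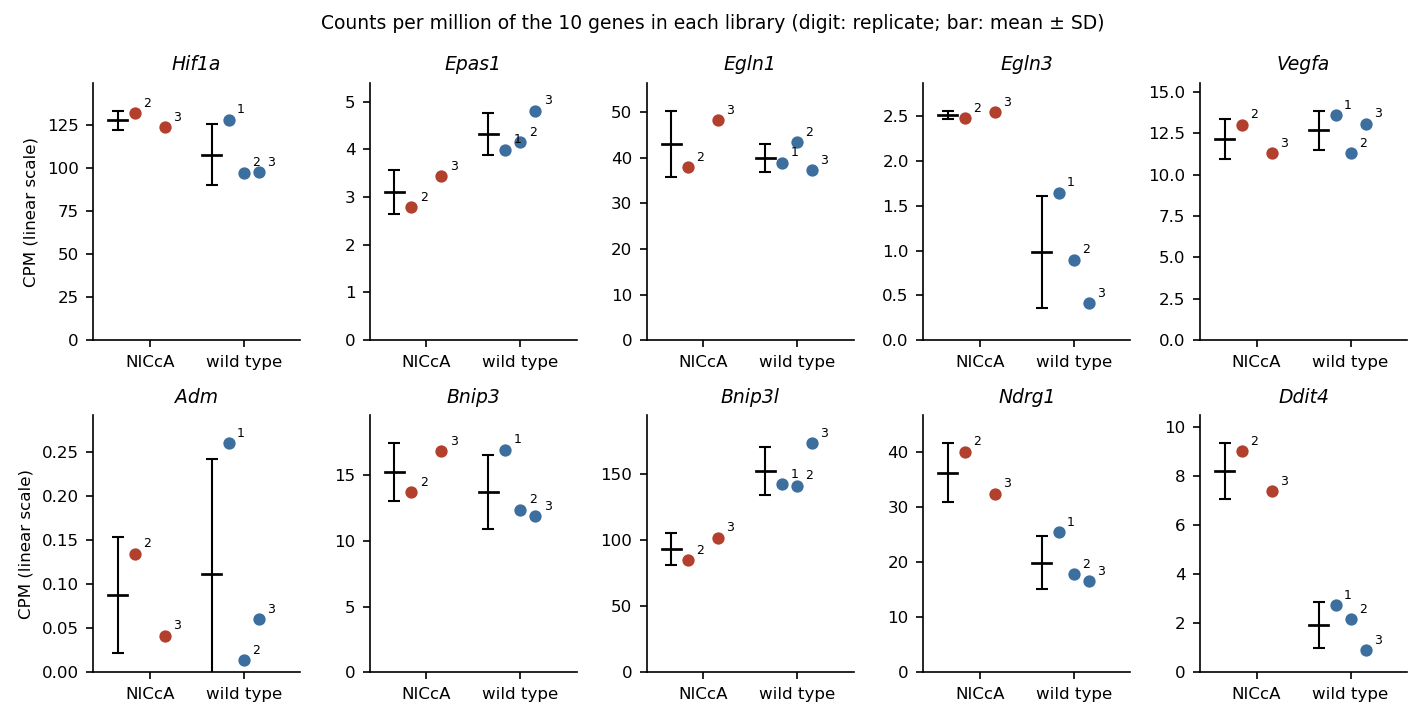
CPM (linear axis from 0) of the 10 genes in the 2 NICcA libraries (red) and the 3 wild type libraries (blue), with the replicate number beside each point and the mean ± SD of each group as a black bar at its left (the lower end for Adm in wild type lies below the axis). Egln3, Ndrg1 and Ddit4 lie higher and Epas1 and Bnip3l lower in both NICcA libraries than in all wild type libraries, and the other 5 genes overlap.

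The windows around the start sites of these genes are shown for Ddit4 and Egln3, which were higher in both NICcA libraries, and for Bnip3, which was not and is a well-known HIF target. The windows run from 250 bases before to 50 bases after the start site, are from RefSeq on build GRCm38.p6 and are written 5′ to 3′ on the strand of the gene. Capitals mark the core of the HIF binding site, searched as the letters ACGTG and GCGTG on both strands, so that CACGT and CACGC are marked too. The Ddit4 window is chr10:59951721-59952020 on the minus strand, the Egln3 window chr12:54203825-54204124 on the minus strand and the Bnip3 window chr7:138909457-138909756 on the minus strand.
Ddit4: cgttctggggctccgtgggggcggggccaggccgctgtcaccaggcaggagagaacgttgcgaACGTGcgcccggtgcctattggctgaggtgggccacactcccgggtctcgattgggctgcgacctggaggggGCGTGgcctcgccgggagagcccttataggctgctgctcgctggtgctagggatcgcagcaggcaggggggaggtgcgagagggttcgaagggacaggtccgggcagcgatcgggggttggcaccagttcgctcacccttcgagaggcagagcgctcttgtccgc
Egln3: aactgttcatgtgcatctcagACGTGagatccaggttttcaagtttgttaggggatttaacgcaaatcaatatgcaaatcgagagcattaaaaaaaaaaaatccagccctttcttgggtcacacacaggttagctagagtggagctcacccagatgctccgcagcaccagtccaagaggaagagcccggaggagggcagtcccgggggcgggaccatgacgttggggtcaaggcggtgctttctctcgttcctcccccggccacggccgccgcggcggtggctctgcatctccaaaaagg
Bnip3: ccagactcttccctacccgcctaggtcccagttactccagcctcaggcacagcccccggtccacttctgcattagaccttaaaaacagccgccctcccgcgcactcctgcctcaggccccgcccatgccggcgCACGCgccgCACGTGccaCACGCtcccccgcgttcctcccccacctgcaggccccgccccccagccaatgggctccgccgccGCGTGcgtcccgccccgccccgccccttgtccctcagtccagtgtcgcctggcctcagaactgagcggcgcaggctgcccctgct

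Ddit4 held 2 matches, Egln3 held 1 and Bnip3 held 5, where a CACGTG counts once on each strand. Of the 10 genes, 7 had a window, with 8 windows in all since Vegfa had 2. The core was found in 7 of these 8 windows, and 43.8% of all 32851 windows in the table held it. The window without the core was the upstream one of Vegfa (chr17:46032328-46032627). The Vegfa window with the core (chr17:46025114-46025413) lies further into the gene. Whether transcription starts there in these cells was not tested. At least 2 matches stood in 6 of the 8, that Vegfa window among them, against 20.6% of all windows. The core contains CG, and the median GC content was 65.5% for the 8 windows and 52.7% for all windows. The letters TGGGAA, the core bound by Rbpj, the DNA-binding partner of the Notch intracellular domain, were found on either strand in 3 of the 8 windows, those of Adm and Vegfa, against 25.6% of all windows. A match describes these letters alone. Bnip3 with 5 matches overlapped between the genotypes, and Egln3 with 1 did not. A relation between the number of matches and the fold change was not tested.

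The libraries held 57442309 to 76562905 counts each. The largest axis of variation across all genes (first principal component, 55.6% of the variance) placed NICcA libraries 2 and 3 at 53.6 and 24.1, and wild type libraries 1, 2 and 3 at -1.03, -18.9 and -57.8, so the wild type libraries were spread along the same axis that separated the genotypes. Hes1, a direct Notch target, had 185 and 125 counts in the NICcA libraries, against 1, 5 and 6 in the wild type libraries. Il1b, an inflammatory cytokine gene, was at 501 and 76.4 CPM in the NICcA libraries and at 14.3 to 16.6 CPM in the wild type libraries. The 7 macrophage markers (Csf1r, Emr1, Cd68, Lyz2, Mertk, Fcgr1 and Itgam) were present in every library. They summed to 11637 and 12332 CPM in NICcA, against 13641 to 20040 CPM in wild type. Lyz2 made up most of the sum, at 9302 and 10411 CPM in NICcA and 11521 to 17517 CPM in wild type. Cd68 and Mertk also lay lower in both NICcA libraries, Fcgr1 lay higher in both (140 and 77.5 CPM, against 48.3 to 63.6 CPM in wild type) and was called by DESeq2 alone, and Csf1r, Emr1 and Itgam overlapped. Sums of the other marker lists were 140 to 299 CPM in NICcA and 72.1 to 149 CPM in wild type for 8 dendritic cell markers, and 140 to 156 against 70.8 to 111 CPM for 9 neutrophil and progenitor markers. They were 35.8 to 45.5 against 18.5 to 34.3 CPM for 6 erythroid and megakaryocyte markers, 2.11 to 2.74 against 1.54 to 1.67 CPM for 7 T, B and NK cell markers, and 11.5 to 14.4 against 7.13 to 25.8 CPM for 8 stromal and endothelial markers. Pf4 made up most of the erythroid and megakaryocyte sum and overlapped between the genotypes. DESeq2 called Itga2b higher, as 1 of 3 markers of that list tested. Itga2b was at 9.12 and 8.11 CPM in NICcA, against 4.39, 3.41 and 2.85 CPM in wild type. DESeq2 also called Ngp higher, 1 of 9 neutrophil and progenitor markers, beside 2.05% of all genes. Itga2b and Ngp were chosen after their values were seen. Ccr7 and Fscn1 made up most of the dendritic cell sum in NICcA, and both overlapped between the genotypes. Of these 8 markers, 5 lay higher in both NICcA libraries, beside 18.3% of all genes. Clec9a overlapped, with a negative log2 fold change (-1.14, SE 0.50). Fewer cells of a type and less RNA per cell cannot be told apart in these bulk samples, and the part of other cells in the results was not tested.

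Hif1a, the subunit that drives most of the glycolytic response, was the better expressed of the HIF alpha genes. It was at 132 and 124 CPM in the NICcA libraries, against 128, 97.5 and 97.5 CPM in the wild type libraries. Wild type library 1 lay between the NICcA libraries, and the other wild type libraries lay below. The log2 fold change was 0.25 (SE 0.15, edgeR adjusted p = 0.46), with a 95% interval from -0.13 to 0.62. On the deposited RPKM scale, which also divides by transcript length, the same libraries read 23.6 and 22.2 in NICcA and 21.8, 15.9 and 15.9 in wild type, without overlap.

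Epas1, the second HIF alpha gene and in macrophages linked to other targets than Hif1a, was low in every library. It had 186 and 248 counts (2.78 and 3.44 CPM) in NICcA, against 230, 304 and 317 counts (3.99, 4.15 and 4.81 CPM) in wild type. Both NICcA libraries were lower than every wild type library, by a log2 fold change of -0.47 (SE 0.19, edgeR adjusted p = 0.35; 95% interval -0.95 to 0.0031). Per length, Hif1a stood 53.3 and 40.5 times above Epas1 in the NICcA libraries, against 36.1, 26.4 and 22.8 times in the wild type libraries. These ratios of RPKM were chosen after the values were seen and are a description without a test.

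Of the hydroxylases, Egln1 (PHD2) is the main oxygen sensor and Egln3 (PHD3) a HIF target itself that feeds back on the pathway. Egln1 was at 38.0 and 48.2 CPM in NICcA, against 38.9, 43.3 and 37.3 CPM in wild type, so the groups overlapped. Its log2 fold change was 0.11 (SE 0.14, edgeR adjusted p = 0.71; 95% interval -0.23 to 0.45), and its sign turned without NICcA library 3 (-0.068).

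Egln3 was rare, with 166 and 184 counts in NICcA and 95, 66 and 27 counts in wild type. That is 2.48 and 2.55 CPM in NICcA, against 1.65, 0.901 and 0.410 CPM in wild type. The NICcA libraries were alike and both above wild type, whose own libraries differed 4.02-fold. The log2 fold change was 1.36 (SE 0.53, edgeR adjusted p = 0.34; 95% interval 0.07 to 2.64). It was 0.99 without wild type library 3 and 1.94 without wild type library 1. Egln1 exceeded Egln3 per length by 11.6 and 14.3 times in NICcA, against 17.9, 36.5 and 69.2 times in wild type.

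**Figure D2:**
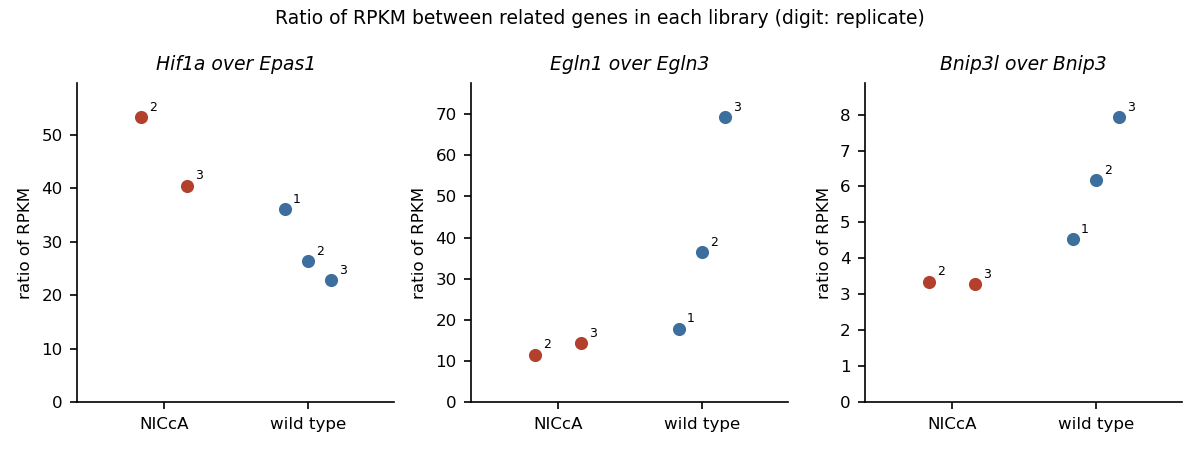
Ratio of RPKM between related genes (linear axes from 0) in the 2 NICcA libraries (red) and the 3 wild type libraries (blue), with the replicate number beside each point. The NICcA libraries have the higher Hif1a over Epas1 ratios and the lower Egln1 over Egln3 and Bnip3l over Bnip3 ratios, and wild type library 1 lies nearest to them in all 3 panels.

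Vegfa, the growth factor for blood vessels and a classical HIF target, overlapped between the genotypes. It was at 13.0 and 11.3 CPM in NICcA, against 13.6, 11.3 and 13.1 CPM in wild type (log2 fold change -0.06, SE 0.14, edgeR adjusted p = 0.86). The 95% interval of -0.41 to 0.29 leaves room for differences of either sign, and the sign was positive without scaling factors (0.044) and in the fits on RPKM. Vegfa had 6 transcript rows that share most of their reads. In 3 of them the count was 96.8% to 100% of that of the row used, and in the other 3 it was 48.3% to 59.1%. The log2 fold change was -0.06 in each of the first 3 rows and -0.22 in each of the others, with adjusted p of 0.59 to 0.87 (edgeR).

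Adm, which encodes the vessel-relaxing peptide adrenomedullin, had 9 and 3 counts in NICcA, against 15, 1 and 4 counts in wild type. With all 5 libraries it did not pass the filter on low counts and was not tested, and in the fits that did include it (without that filter, or without 1 NICcA library) it was not called. A difference was not detectable at this depth. Its highest count was in wild type library 1, which also held 419 counts of the fibroblast collagen gene Col3a1, where each other library held 1 or 2. The part of such cells in the Adm count was not tested.

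Bnip3 and Bnip3l (NIX) encode receptors on the outer mitochondrial membrane that hand mitochondria to the autophagy machinery. Bnip3l was at 84.6 and 102 CPM in NICcA, against 142, 141 and 173 CPM in wild type. Both NICcA libraries lay well below all wild type libraries, and neither group spanned more than 1.23-fold, against a 1.63-fold lower level in NICcA. Its log2 fold change was -0.71 (SE 0.15, edgeR adjusted p = 0.27; 95% interval -1.07 to -0.34). DESeq2 called Bnip3l lower (adjusted p = 0.0043), and over all alternatives its adjusted p ranged from 0.0043 to 0.90. Each library left out in turn kept the log2 fold change between -0.84 and -0.58.

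Bnip3 was at 13.7 and 16.8 CPM in NICcA, against 16.9, 12.4 and 11.9 CPM in wild type. The groups overlapped, with a log2 fold change of 0.15 (SE 0.20, edgeR adjusted p = 0.73; 95% interval -0.33 to 0.64), which was at 0 within rounding without NICcA library 3 (-0.0017). Per length, Bnip3l exceeded Bnip3 by 3.35 and 3.28 times in NICcA, against 4.55, 6.18 and 7.92 times in wild type. The intervals of the 2 genes' fold changes, -1.07 to -0.34 and -0.33 to 0.64, come from separate tests, and the difference between them was not tested.

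Ndrg1, a stress-induced gene that HIF, Myc and other factors control, was at 40.0 and 32.4 CPM in NICcA, against 25.5, 17.8 and 16.5 CPM in wild type. Both NICcA libraries were above all wild type libraries. For Ndrg1 the log2 fold change was 0.86 (SE 0.21, edgeR adjusted p = 0.28; 95% interval 0.34 to 1.39), a 1.82-fold higher level. DESeq2 called it higher (adjusted p = 0.020), and over all alternatives the adjusted p ranged from 0.020 to 0.90. With each library left out in turn the log2 fold change stayed between 0.70 (without NICcA library 2) and 1.08 (without wild type library 1).

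Ddit4 had 603 and 533 counts in NICcA, against 158, 160 and 59 counts in wild type. The lowest NICcA library and the highest wild type library were 1.43 apart on the log2 scale of CPM, the widest such gap among these 10 genes. The log2 fold change was 2.08 (SE 0.44, edgeR adjusted p = 0.27; 95% interval 1.02 to 3.15), a 4.23-fold higher level. By the size of the log2 fold change Ddit4 ranked 215 of 13341 genes, and by its p 135. DESeq2 called it higher (adjusted p = 0.0012), and its adjusted p ranged from 0.0012 to 0.90 over all alternatives. It was 1.74 on the log2 scale without wild type library 3, which had the lowest value, and 2.42 without wild type library 1.

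**Figure D3:**
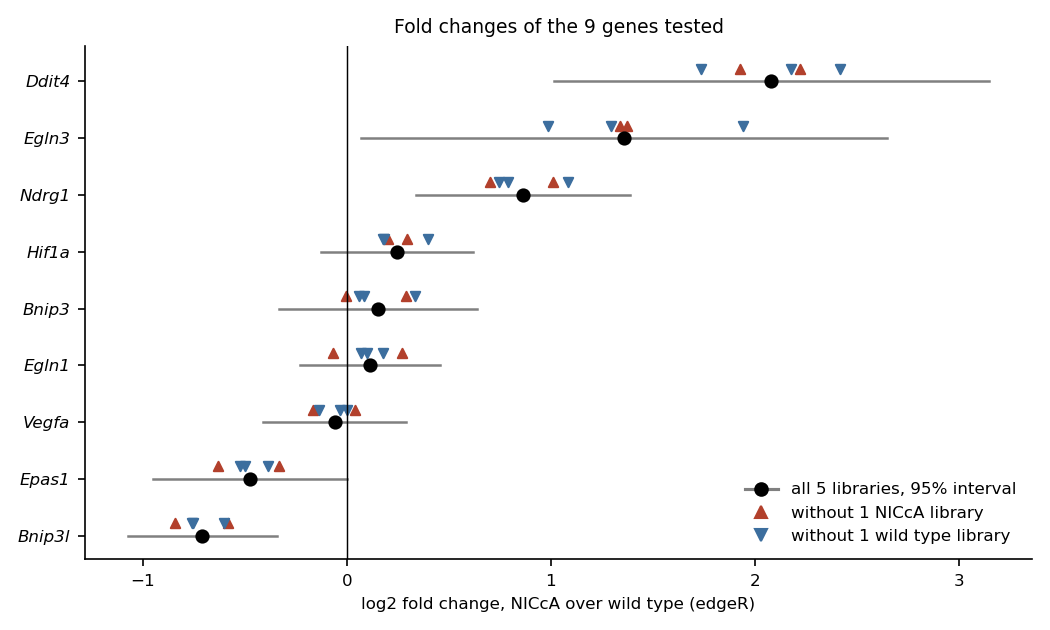
Log2 fold change of NICcA over wild type (edgeR) for the 9 genes tested, with 95% intervals (grey), and the values with 1 NICcA library (red) or 1 wild type library (blue) left out. Ddit4, Egln3, Ndrg1, Hif1a, Epas1 and Bnip3l keep their sign in all 5 such fits, and the intervals of Hif1a, Bnip3, Egln1, Vegfa and Epas1 reach 0.

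Ndrg1 and Ddit4 ordered the 5 libraries as the first principal component did, with NICcA library 2 at the top and wild type library 3 at the bottom, and Epas1 ordered them in reverse. Within wild type, library 1 was the highest in both genes (25.5 CPM for Ndrg1, 2.74 CPM for Ddit4) and library 3 the lowest (16.5 and 0.895 CPM). The part of this shared axis in the results was not tested. Il1b differed widely between the NICcA libraries, while none of the 9 tested genes differed by more than 1.27-fold between them, with Egln1 at that value.

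Per length, Bnip3l and Hif1a were the most abundant of the 10 genes in both genotypes. In NICcA the RPKM averaged 24.5 ± 3.3 for Bnip3l, 22.9 ± 0.94 for Hif1a, 10.7 ± 1.6 for Ndrg1, 10.4 ± 1.8 for Egln1, 7.41 ± 1.1 for Bnip3, 4.15 ± 0.57 for Ddit4, 2.94 ± 0.28 for Vegfa, 0.802 ± 0.018 for Egln3 and 0.496 ± 0.075 for Epas1 (SD, n = 2). Of these neighbours, Bnip3l and Hif1a overlapped, as did Ndrg1 and Egln1. In wild type the RPKM averaged 37.0 ± 4.1 for Bnip3l, 17.9 ± 3.4 for Hif1a, 8.91 ± 0.66 for Egln1, 6.18 ± 1.4 for Bnip3, 5.45 ± 1.5 for Ndrg1, 2.83 ± 0.32 for Vegfa, 0.913 ± 0.46 for Ddit4, 0.635 ± 0.055 for Epas1 and 0.293 ± 0.19 for Egln3 (SD, n = 3). There the pairs Bnip3 and Ndrg1, Ddit4 and Epas1, and Egln3 and Adm overlapped. Ndrg1 stood above Bnip3 in NICcA without overlap and beside it in wild type, and Ddit4 stood above Vegfa in NICcA and below it in wild type.

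Among 13 partners of the HIF subunits, edgeR and DESeq2 each called 0. An unadjusted edgeR p below 0.05 was found for 1, higher in NICcA (beside 14.5% of all genes). The median log2 fold change was 0.01 where that of all genes tested was 0.0028. The groups did not overlap for 2 higher and 2 lower genes, 30.8% of the list beside 36.8% of all genes. Arnt, the common partner of the alpha subunits, was lower in both NICcA libraries. It was at 24.2 and 30.2 CPM in NICcA and 33.4, 31.6 and 34.9 CPM in wild type (log2 fold change -0.29, SE 0.13). The Vhl ligase gene (0.18, SE 0.17), the remaining prolyl hydroxylase gene Egln2 (0.06, SE 0.15) and the asparaginyl hydroxylase gene Hif1an (-0.06, SE 0.13) had log2 fold changes near 0, with groups that overlapped.

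Of 31 other HIF target genes, 23 had a positive log2 fold change, where 6739 of all 13341 genes did, and the median was 0.32. Neither count nor median was tested. edgeR called 0 of them. An unadjusted p below 0.05 was found for 10 (7 higher and 3 lower in NICcA), beside 14.5% of all genes. The groups did not overlap for 16 (11 higher, 5 lower), which is 51.6% of the list beside 36.8% of all genes. The list median relative to the wild type mean was 0.35 and 0.09 on the log2 scale in NICcA libraries 2 and 3, and 0.09, 0.02 and -0.12 in wild type libraries 1, 2 and 3, so NICcA library 3 was level with wild type library 1. The lactate dehydrogenase gene Ldha was at 749 and 598 CPM in NICcA, against 576, 567 and 446 CPM in wild type (log2 fold change 0.35, SE 0.17, edgeR adjusted p = 0.39). The glucose transporter gene Slc2a1 was high in NICcA library 2 alone, at 81.0 and 45.8 CPM in NICcA and 47.5, 47.6 and 50.7 CPM in wild type (0.38, SE 0.23).

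The glycolytic enzyme gene Pgk1 (0.36, SE 0.18) and Pdk1 (0.37, SE 0.15), whose product inhibits pyruvate dehydrogenase, had log2 fold changes like that of Ldha. Pdk1 lay higher in both NICcA libraries, and Pgk1 overlapped. Pgk1 was at 479 and 353 CPM in NICcA, against 365, 320 and 287 CPM in wild type. Pfkfb3, a regulator of glycolytic flux, was at -0.15 (SE 0.11) and Hmox1, the haem-degrading enzyme gene, at -0.39 (SE 0.16), both on the log2 fold change scale. DESeq2 called 2 of the 31 genes of the list, beside 3.95% of all genes. Pfkfb4, a relative of Pfkfb3, was lower, at 52.5 and 54.0 CPM in NICcA and 79.8, 83.2 and 75.8 CPM in wild type, and the mitochondrial adenylate kinase gene Ak4 was higher, at 10.3 and 4.23 CPM in NICcA and 3.04, 3.25 and 2.19 CPM in wild type. These genes, and Nbr1 and Atg5, are named because DESeq2 called them, and were chosen after their values were seen.

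Most other genes of mitophagy and autophagy had a negative log2 fold change, as Bnip3l did and Bnip3 did not. Of 20 genes, 3 had a positive log2 fold change, where 6739 of all 13341 genes did, and the median was -0.13. Relative to the wild type mean, the list median was -0.11 and -0.13 on the log2 scale in NICcA libraries 2 and 3. In wild type libraries 1, 2 and 3 it was -0.08, 0.04 and 0.03, so wild type library 1 lay nearest to NICcA. The groups did not overlap for 11 (55% of the list, beside 36.8% of all genes), of which 9 were lower in NICcA, beside 18.5% of all genes. edgeR called 0. An unadjusted p below 0.05 was found for 4, all lower, beside 6.83% of all genes, and the lean of the list was not tested. DESeq2 called 2 of the 20, both lower, where it called 1.9% of all genes lower. They were Nbr1, a cargo receptor, and Atg5, which helps to attach LC3 to membranes. Nbr1 was at 91.9 and 102 CPM in NICcA, against 122, 126 and 139 CPM in wild type, and Atg5 at 39.2 and 42.8 CPM in NICcA, against 52.4, 52.5 and 56.7 CPM in wild type. For Pink1, the kinase that marks damaged mitochondria, the log2 fold change was -0.22 (SE 0.21), and for the cargo receptor gene Sqstm1 it was -0.03 (SE 0.17), with groups that overlapped. The ubiquitin ligase gene Park2 was rare, at 0.389 and 0.513 CPM in NICcA and 0.364, 0.314 and 0.319 CPM in wild type (0.44, SE 0.37). The autophagy kinase gene Ulk1 was at -0.21 (SE 0.16).

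Among the other brakes on mTORC1, 16 of 17 genes were tested (all but Prkaa2) and edgeR called 0, with a median log2 fold change of 0.03. At an unadjusted p below 0.05 there were 3 higher and 1 lower, beside 14.5% of all genes. The groups did not overlap for 6 (5 higher, 1 lower), or 37.5% of the list, a share close to the 36.8% of all genes. Sesn2, a stress-induced leucine sensor, was at 27.7 and 22.5 CPM in NICcA, against 15.0, 15.4 and 9.30 CPM in wild type (log2 fold change 0.92, SE 0.24, edgeR adjusted p = 0.28). DESeq2 alone called Sesn2 (adjusted p = 0.027), as 1 of the 16 genes, beside 3.95% of all genes. The genes of the TSC complex, through which Ddit4 acts, overlapped between genotypes, with log2 fold changes of -0.18 (SE 0.12) for Tsc1 and 0.04 (SE 0.15) for Tsc2. Sesn1 (-0.26, SE 0.25) and Deptor (-0.39, SE 0.21), an inhibitor bound to mTOR itself, overlapped as well. Ddit4l, the close relative of Ddit4, was at 0.239 and 0.152 CPM in NICcA and 0.208, 0.027 and 0.076 CPM in wild type.

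**Figure D4:**
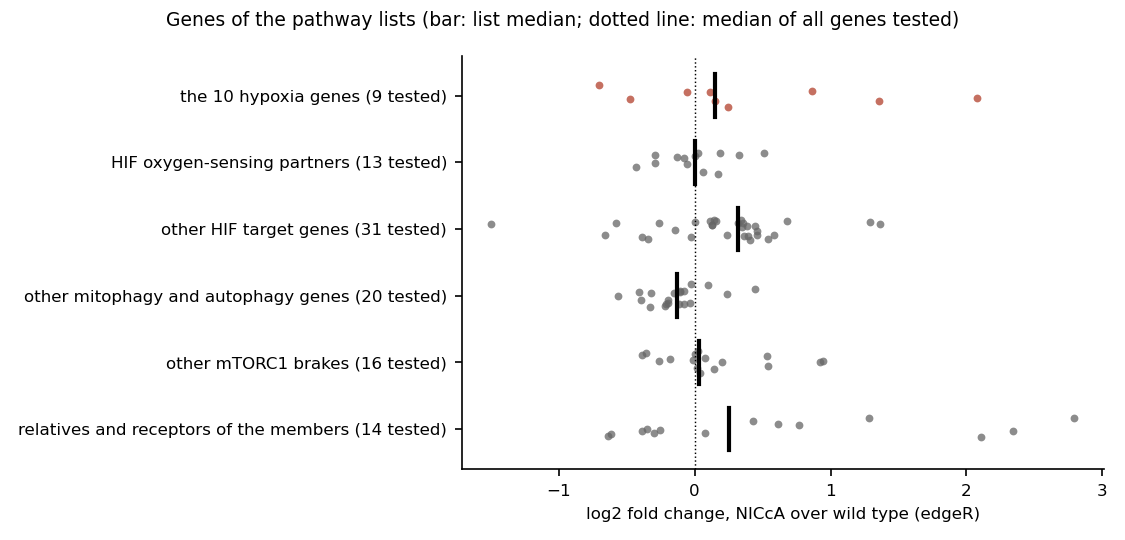
Log2 fold change of NICcA over wild type (edgeR) for each gene tested of the 10 hypoxia genes (red) and of the 5 pathway lists (grey), with the list median as a bar and the median of all genes tested as a dotted line. The median of the other HIF target genes is 0.32 and that of the other mitophagy and autophagy genes is -0.13, and genes of either sign occur in every list.

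Relatives and receptors of these genes went both ways, with 0 of 14 tested called by edgeR or DESeq2, and 4 higher and 2 lower at an unadjusted p below 0.05, beside 14.5% of all genes. The groups did not overlap for 8 (57.1%, beside 36.8% of all genes). Ndrg2 was at 4.65 and 3.84 CPM in NICcA, against 3.73, 2.29 and 1.46 CPM in wild type (log2 fold change 0.77, SE 0.39), and Ndrg3 at 21.4 and 26.1 CPM in NICcA, against 27.8, 27.7 and 29.6 CPM in wild type (-0.26, SE 0.12). Vegfb (0.08, SE 0.22) and the VEGF receptor gene Flt1 (-0.39, SE 0.67) overlapped. Nrp1, a co-receptor for VEGF, was at 92.7 and 92.0 CPM in NICcA, against 116, 119 and 190 CPM in wild type (-0.62, SE 0.24, edgeR adjusted p = 0.34). Calcrl, the receptor for adrenomedullin, was at 10.3 and 11.2 CPM in NICcA, against 15.5, 13.2 and 21.4 CPM in wild type (-0.64, SE 0.22, edgeR adjusted p = 0.32).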

How the data were processed

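The authors deposited read counts and RPKM values for 27457 RefSeq transcript rows, per the file headers. The RPKM were computed by the authors and used as deposited. Bowtie 0.12.2 and the build mm8 appear, without a role, in the submitters' processing notes. How reads were counted, and whether by strand, is not given in the sources used here, so antisense reads cannot be told apart. Isoform rows share reads. Rows were tested with edgeR 4.0.16 (R 4.3.3) on all 5 libraries: TMM scaling, filterByExpr, glmQLFit and glmQLFTest, a model of genotype alone, and p-values adjusted by Benjamini-Hochberg over 18267 rows. The SE is the absolute log2 fold change over the square root of F, and intervals use the test's degrees of freedom. Each gene is its row with the highest mean count. Alternatives were other scalings and filters, DESeq2 1.42.0, limma 3.58.1 (voom, and log2 of RPKM plus a pseudocount of 1 or 0.1), 1 row per gene, a fit with replicate number, and fits that omit a library. The fits were tested on simulated data. The genes and lists were chosen with earlier results of these data known. Named were the 10 genes, a set of pathway genes listed by name, and any list gene past the edgeR threshold (there were 0). List genes named outside this rule are said to be chosen after their values were seen. The Ly6g marker was not analysed here. Of 47 symbols turned into dates, 46 were renamed by accession. Start site windows are from RefSeq (GRCm38.p6), a later build than mm8, and were matched by symbol. Tables and figures were made in Python 3.11.15 with pandas 2.3.3, numpy 2.4.6 and, for drawing, matplotlib 3.10.9.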

Additional observations from a re-analysis of the deposited data

How the results depend on the processing

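Of 158 fold changes of the 9 genes under the alternatives, 148 kept their sign and stayed without a call, 3 passed the threshold and 7 changed sign. Those that passed were Ddit4, Bnip3l and Ndrg1 with DESeq2, which called 3 of the 9 genes and 527 of all genes, against 0 and 4 with edgeR. DESeq2 also called 2 of 31 other HIF targets, 2 of 20 other mitophagy genes and 1 of 16 other mTORC1 brakes, beside 3.95% of all genes. The sign of Vegfa changed without scaling factors (0.044), with limma on log2(RPKM + 1) with and without a filter (0.041 each) and on log2(RPKM + 0.1) (0.054), on the log2 scale. Without scaling factors and in the filtered fits on RPKM the median of all genes was itself 0.09 to 0.11, above these values. With each library left out, the log2 fold change ranged from -0.16 to 0.041 for Vegfa, from -0.068 to 0.27 for Egln1 and from -0.0017 to 0.33 for Bnip3, and each changed sign without NICcA library 3. edgeR called 11 genes without a low-count filter, 8 with legacy = FALSE (chosen after seeing the data) and 0 with the replicate block, and limma called 2 with voom and 2 in both filtered RPKM fits. With each library left out in turn edgeR called 0 to 44 genes, with 0 without NICcA library 2 or wild type library 2 and 44 without NICcA library 3, and 0 of the 9 genes in any of these fits. Where 1 NICcA library was left, it was assumed to vary like the wild type libraries. The labels do not say that equal replicate numbers mark a shared source. Deviations from the group means correlated across genes at 0.21 between the libraries numbered 2 and at 0.17 between those numbered 3, and at -0.21 and -0.17 between unlike numbers, since the deviations of 2 NICcA libraries mirror each other. With these 2 pairs a pairing was not established. With the replicate block, 0 of the 9 genes were called and Ddit4 had a log2 fold change of 2.52 (edgeR adjusted p = 0.097). No NICcA library is numbered 1, so wild type library 1 adds nothing to the genotype difference in that fit. Without wild type library 1 and without the block, the log2 fold change of Ddit4 was 2.42. Epas1 and Egln3 fell under the RPKM filter and gave no value there. The groups did not overlap for 5 of the 9 genes on CPM with TMM, RLE or upper-quartile factors, and for 6 without factors or on RPKM. Counts of 27 to 317 limit Egln3 and Epas1, and the cause of the differences between tools was not tested.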

Other observations

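Among the vessel growth factors and peptide receptors listed beside the 10 genes, 4 are given here that were chosen after their values were seen and that stood higher in both NICcA libraries. Pgf, which encodes placental growth factor, a relative of Vegfa, was at 35.4 and 26.8 CPM in NICcA, against 13.0, 6.96 and 1.68 CPM in wild type (log2 fold change 2.11, SE 0.71, edgeR adjusted p = 0.32). Vegfc, the lymphatic growth factor gene, was rare at 0.673 and 0.402 CPM in NICcA, against 0.156, 0.041 and 0.121 CPM in wild type (2.35, SE 0.61, edgeR adjusted p = 0.28). Ramp3, which joins Calcrl in an adrenomedullin receptor, was at 4.29 and 4.09 CPM in NICcA, against 1.28, 3.02 and 0.835 CPM in wild type (1.29, SE 0.52, edgeR adjusted p = 0.34), while Calcrl itself was lower. Ramp2, another such partner of Calcrl, had 20 and 16 counts in NICcA, against 3, 2 and 2 counts in wild type (edgeR adjusted p = 0.27), and DESeq2 gave no adjusted p for it at these counts. None of the 4 passed edgeR, and Pgf, Vegfc and Ramp3 did not pass DESeq2.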
